A study of Mus musculus with 3 samples.

Results

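Natural killer (NK) cells of the mouse lung were examined across 3 single-cell RNA libraries, from naive lungs and from lung transplants at 2 h and 3 days of reperfusion. A cell was taken as an NK cell when Ncr1, Klrb1c, Klrd1, Klre1, Gzma and Prf1 together gave at least 2 unique molecular identifiers (UMIs, each standing for 1 captured RNA molecule) and at least 0.1% of its UMIs. It also had to hold no UMI of Cd3d or Cd3e, at most 1 UMI of Cd79a, Cd79b and Ms4a1 together, and under 0.5% of its UMIs from S100a8, S100a9 and Lyz2. Of 21029 cells that passed the filters, 1543 met this rule, namely 483 of 2422 in the naive library, 762 of 10283 at 2 h and 298 of 8324 at 3 days.

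The study placed a left lung of a CD45.2 C57BL/6J donor orthotopically into a syngeneic CD45.1 recipient, after 60 min of cold storage at 4 °C and 45 min of warm ischemia at 28 °C. Lungs were taken at 2 h or 3 days of reperfusion, while the naive library came from the left lungs of C57BL/6J mice that had no transplant, and mice were 8 to 10 weeks old. Recipients are C57BL/6J in the design text, whereas the study's methods give its CD45.1 strain as B6.SJL-Ptprca Pepcb/BoyJ. Cells of 2 mice were pooled for each library, stained for CD45.1, CD45.2 and a dead-cell dye, and sorted, with recipient CD45.1+ cells kept from the transplants. The design text names the same CD45.1 sort for the naive library, although a naive C57BL/6J lung holds no recipient cells. Each condition had 1 library, so there was no replicate check and no test between conditions, and every interval below covers counting error alone. Depth differed widely, as NK cells yielded 3848829 UMIs from naive lungs, 655986 at 2 h and 1818102 at 3 days, with medians of 7475, 781.5 and 5166.5 UMIs per cell.

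NK cells are innate lymphocytes that kill stressed or infected cells by releasing perforin and granzymes, and that secrete interferon-gamma and chemokines. Their activity is set by the balance of activating receptors, such as NKp46 (Ncr1) and NK1.1 (Klrb1c), against inhibitory receptors for MHC class I, which in mice include members of the Ly49 family and CD94 (Klrd1) paired with NKG2A. In the lung they make up a large share of lymphocytes, mostly in the vascular bed, and they mature from CD27-bearing to CD11b-bearing (Itgam) cells.

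The genes that the rule used were high in the selected cells by construction and are given as a description. Gzma, the granzyme A protease, stood at 9862 CPM in the naive library, 7772 at 2 h and 8082 at 3 days (CPM, the UMIs summed over the NK cells of a library and scaled to a total of 1000000). Prf1, which encodes the pore-forming perforin, stood at 1234 CPM in the naive library, 1162 at 2 h and 1260.1 at 3 days. Klrb1c held 662, 800.3 and 639 CPM in the same order of libraries, Klrd1 666, 449.7 and 732 CPM, Klre1 772, 389 and 638 CPM, and Ncr1 391, 145 and 213 CPM. Just inside the limit of 2 UMIs lay 1 cell of the naive library, 52 cells at 2 h and 1 cell at 3 days, and just outside it, with 1 UMI, lay 38, 97 and 68 cells, so the shallow 2 h library held most of the marginal members. Without the Cd3, B cell and myeloid limits, 557, 936 and 422 cells would have been selected, and the Cd3 limit removed 70, 129 and 87 of them.

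Markers that the rule did not use also marked the selected cells as NK cells. Nkg7, a granule membrane protein, was detected in 67.9%, 63.7% and 67.1% of NK cells of the naive, 2 h and 3 days libraries after each cell was thinned to 500 UMIs, and in 0%, 0.228% and 0.110% of B cells treated in the same way (35 NK cells at 2 h had too few UMIs and were left out). Eomes, the T-box factor that defines conventional NK cells, was detected in 16.8%, 13.2% and 23.5% of thinned NK cells and stood at 388 CPM in the naive library, 331 at 2 h and 443 at 3 days. Adaptor transcripts of activating receptors were abundant as well, with Tyrobp (DAP12) at 2189, 2526 and 2491 CPM and Fcer1g at 1754, 2474 and 1742 CPM in the order naive, 2 h, 3 days. Trac, the constant chain of the T cell receptor alpha, was low at 14.03, 24.4 and 13.8 CPM, against Trbc1 at 357, 230.2 and 349 CPM.

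A small number of the selected cells went against the label. At 3 days, 15 of the 298 cells formed a cluster led by Cd74, H2-Eb1 and H2-Ab1 with Siglech and Bst2 among its leading genes. They had a median of 16817 UMIs, and they met the rule through Klrd1 (1691 CPM) while Ncr1, Prf1 and Klrb1c were at 0 and Gzma at 8.15 CPM. At 2 h, 41 of the 762 cells formed a cluster led by Cd74, H2-Aa and H2-Ab1, of which 11 were called doublets, with Gzma at 2017 CPM against 9397 CPM in the main cluster of that library. A further 7 cells at 2 h, of which 4 were called doublets, were led by Cxcl2, Il1b and Thbs1. Together these clusters carried 10.9% of the NK UMIs at 2 h and 13.5% at 3 days. Several results are given with and without them, and 714 cells at 2 h and 283 at 3 days remain without them.

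The 5′ ends of the rule genes are shown because these genes define the population. RefSeq promoters (250 bases before the start on the GRCm38.p6 assembly) were present for 5 of the 6 genes, with none for Klrd1. Letters TGTGGT, the core bound by RUNX factors, read on both strands, were found in at least 1 promoter of all 5 genes, against 14.05% of 32851 promoters (4614). The T-box letters AGGTGTGA, a string that neither contains nor lies within the former, were in none of the 5, against 1.12% of promoters. These shares count promoters and not genes. Ncr1 and Klre1 had 2 promoters each, with the RUNX letters in 2 of 2 for Ncr1 and 1 of 2 for Klre1, while Gzma, Prf1 and Klrb1c had 1 each. Those of Ncr1 overlap and hold the same letters. Among other NK genes scanned, Nkg7, Gzmb and Klrk1 held the RUNX letters and Nkg7 also the T-box letters. No match was found for Eomes, Tbx21 or Il2rb. A match of letters is a description and not a site. Runx3 itself stood at 444 CPM in the naive library, 297 at 2 h and 514 at 3 days in NK cells, and Tbx21 (T-bet) at 382 CPM in the naive library, 140.2 at 2 h and 144 at 3 days. The 200 bases before the start of 4 rule genes follow, 5′ to 3′ on the strand of the gene, with the RUNX letters or their reverse complement in capitals. Ncr1 lies at chr7:4337515-4337714 (plus strand), Gzma at chr13:113100982-113101181 (minus strand), Prf1 at chr10:61297636-61297835 (plus strand) and Klrb1c at chr6:128788642-128788841 (minus strand).
Ncr1: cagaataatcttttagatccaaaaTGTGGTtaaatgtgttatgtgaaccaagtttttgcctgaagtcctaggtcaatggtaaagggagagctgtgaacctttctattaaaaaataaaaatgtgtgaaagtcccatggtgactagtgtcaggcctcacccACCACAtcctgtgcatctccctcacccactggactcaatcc
Gzma: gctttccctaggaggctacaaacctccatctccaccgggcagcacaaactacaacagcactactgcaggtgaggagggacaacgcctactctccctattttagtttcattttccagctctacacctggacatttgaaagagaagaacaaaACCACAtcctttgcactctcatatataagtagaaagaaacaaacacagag
Prf1: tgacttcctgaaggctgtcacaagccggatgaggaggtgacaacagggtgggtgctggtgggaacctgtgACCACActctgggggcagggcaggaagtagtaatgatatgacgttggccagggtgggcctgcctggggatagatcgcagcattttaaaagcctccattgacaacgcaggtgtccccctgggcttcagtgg
Klrb1c: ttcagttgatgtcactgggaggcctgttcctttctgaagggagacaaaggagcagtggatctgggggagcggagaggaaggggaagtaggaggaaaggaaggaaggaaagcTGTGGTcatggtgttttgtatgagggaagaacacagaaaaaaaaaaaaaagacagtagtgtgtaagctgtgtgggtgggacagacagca

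Fewer of the sorted cells were NK cells after transplantation than in the naive lung. They made up 19.9% of kept cells in the naive library (95% Clopper-Pearson interval 18.4% to 21.6%), 7.41% at 2 h (6.91% to 7.93%) and 3.58% at 3 days (3.19% to 4.00%), and these intervals did not overlap. The order of the shares was the same after each cell was thinned to 500 UMIs, at 20.2%, 6.98% and 3.78%. With 1000 UMIs per cell, which left 3992 of the 10283 cells at 2 h, the shares were 21.8%, 4.31% and 4.17%, and the intervals of the 2 transplant libraries then overlapped. Without these clusters (48 cells at 2 h and 15 at 3 days), the shares at 2 h and 3 days were 6.94% and 3.40%. The sort decides which cells enter a library, and whether its gate was equal for naive and recipient cells is not stated, so a share of sorted cells cannot be told apart from the gate. No barcode of an NK cell was shared between libraries (8, 1 and 23 barcodes were shared over all cells of each pair).

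**Figure D1:**
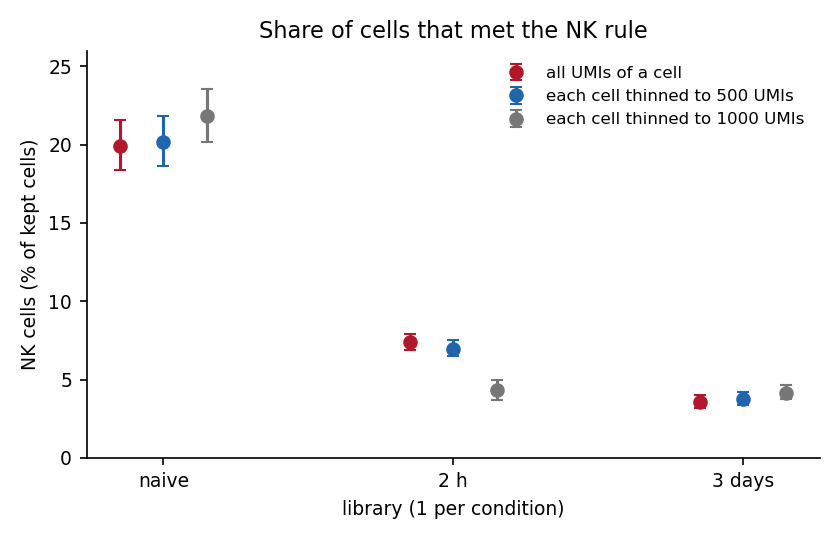
Share of kept cells that met the NK rule (y axis, percent) in the naive, 2 h and 3 days libraries (x axis), at full depth and with each cell thinned to 500 or 1000 UMIs. Points are single libraries and bars are 95% Clopper-Pearson intervals. At full depth the shares run from 19.9% to 7.41% and 3.58%, and at 1000 UMIs the 2 h and 3 days libraries lie at 4.31% and 4.17%.

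The main comparison was between 2 h and 3 days of reperfusion, since the files of both were made with Cell Ranger 6.0.0 while the naive file was made with 7.1.0. Summed immediate-early and quiescence-related transcripts, which lymphocytes switch on or off within minutes to hours, were higher at 2 h, although most members were within 2-fold. Of 37 tested members of this list, 11 were at least 2-fold higher at 2 h and 2 at least 2-fold lower, where 2-fold refers to the ratio of CPM + 10 and tested genes had at least 30 UMIs over both libraries. A scarce gene, in a list or among all genes, could reach that minimum through the deeper 3 days library alone. Log2 ratios of single genes and of list sums are of CPM with nothing added, so a scarce gene can have a ratio past 1 and not be counted. Among all 7459 tested genes, 3.55% were higher by this measure (265 genes) and 8.31% lower (620 genes), with a median log2 ratio of -0.20. With each cell thinned to 500 UMIs, which matched the depth per cell but not the summed depth (727 cells at 2 h and 298 at 3 days), 9.49% of 2667 tested genes were higher (253 genes) and 10.2% lower (271 genes), and 10 of 26 tested members of this list were higher and 2 lower. The list summed to 7817 CPM in the naive library, 18497 at 2 h and 9482 at 3 days, a log2 ratio of 0.96 (95% interval 0.93 to 0.998) from 2 h to 3 days. Other lymphocytes of the same libraries moved in the same direction, with log2 ratios of 1.15 in T cells and 1.40 in B cells. 3 members tied to quiescence, Btg1, Klf2 and Pdcd4, carried much of this: without them the list summed to 5983 CPM in the naive library, 11006 at 2 h and 7599 at 3 days, a log2 ratio of 0.53 (95% interval 0.49 to 0.58) in NK cells and 0.69 in T cells. Without the clusters led by Cd74 and by Cxcl2, called the odd clusters from here on, 10 of 37 members were higher and 1 lower, where 3.76% and 7.97% of all 6997 tested genes were.

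Klf2, a factor that keeps lymphocytes quiescent and governs their trafficking, stood at 524 CPM in the naive library, 2271 at 2 h and 584 at 3 days, and its log2 ratio of 2 h to 3 days was 1.96 (95% interval 1.84 to 2.07). Btg1, an anti-proliferative gene, stood at 864 CPM in the naive library, 3109.8 at 2 h and 997 at 3 days, with a log2 ratio of 1.64 (95% interval 1.55 to 1.73). Pdcd4, which restrains translation, stood at 446 CPM in the naive library, 2109.8 at 2 h and 303 at 3 days, a log2 ratio of 2.799 (95% interval 2.66 to 2.94). For these 3 genes the 2 h library was the high one, and the naive and 3 days libraries each lay far below it. Fos, the classical immediate-early factor of the AP-1 complex, stood at 67.6 CPM in the naive library, 447 at 2 h and 105 at 3 days (log2 ratio 2.10, 95% interval 1.83 to 2.37), and its partner Junb at 588 CPM in the naive library, 1188 at 2 h and 613 at 3 days (log2 ratio 0.95, 95% interval 0.82 to 1.09). At 500 UMIs per cell, Fos was detected in 12.0% of NK cells at 2 h and 4.03% at 3 days, and in 16.6% and 3.42% of B cells. Log2 ratios of Fos were 2.43 in T cells and 3.22 in B cells, those of Klf2 1.57 in T cells and 1.80 in B cells, and those of Pdcd4 3.14 in T cells and 3.39 in B cells, so none of the 3 differences was confined to NK cells.

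**Figure D2:**
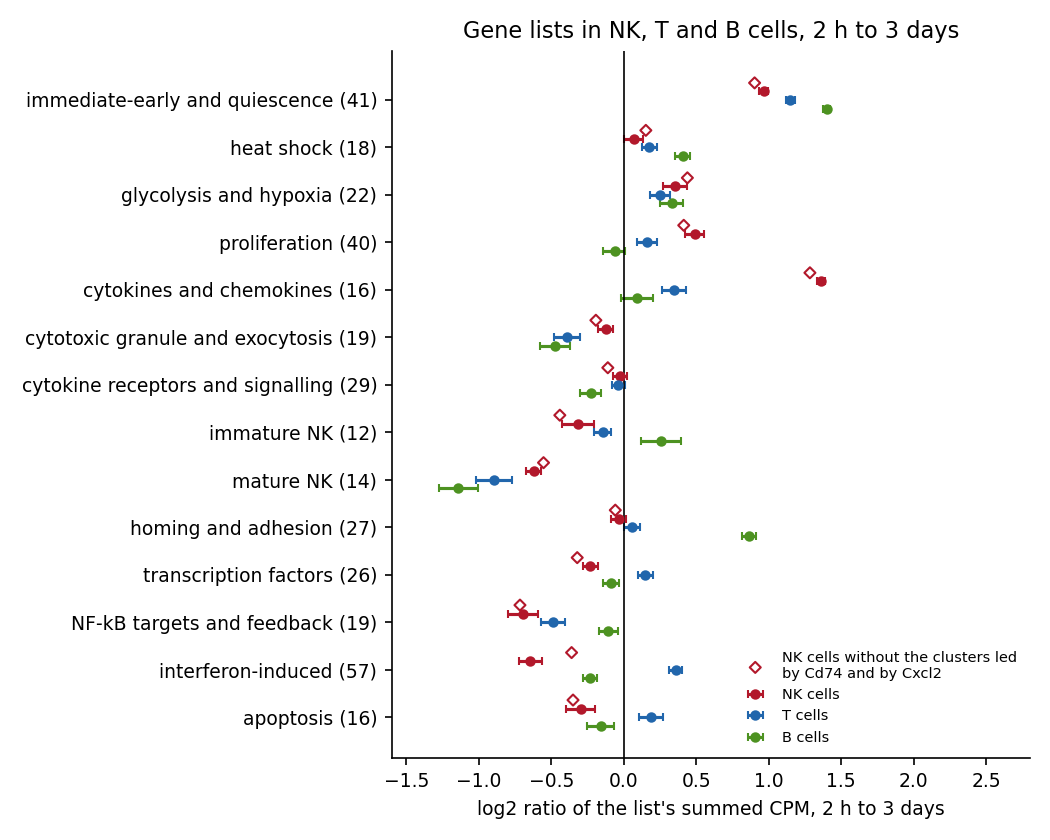
Log2 ratio of the summed CPM of 14 gene lists from 2 h to 3 days (x axis) in NK, T and B cells. The number of genes found stands in brackets, bars are 95% intervals of counting error, and open diamonds are NK cells without the clusters led by Cd74 and by Cxcl2. The immediate-early and quiescence list lies at 0.96 in NK cells, and the interferon-induced list lies at -0.64 in NK cells and 0.36 in T cells.

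Most identity transcripts of NK cells outside the rule were within 2-fold between 2 h and 3 days, and Ccl5 stood apart. Of 23 tested members, 2 were at least 2-fold higher at 2 h (Ccl5 and Hcst) and 2 at least 2-fold lower (Cd244a and Ctsw), beside 3.55% and 8.31% of all genes, with a median log2 ratio of 0.02. Ccl5, a chemokine that draws T cells and monocytes, stood at 14239 CPM in the naive library, 29029.6 at 2 h and 10754 at 3 days, with a log2 ratio of 1.43 (95% interval 1.40 to 1.46). At 500 UMIs per cell it was detected in 95.9%, 97.2% and 88.6% of NK cells, against 2.56%, 1.37% and 0.717% of B cells, so it was widespread among NK cells in each library. The log2 ratio of Ccl5 was 0.82 in T cells and 1.34 in NK cells without the odd clusters. Hcst, the DAP10 adaptor of NKG2D, stood at 513 CPM in the naive library, 976 at 2 h and 464 at 3 days (log2 ratio 1.07, 95% interval 0.92 to 1.22), which was 0.94 without those cells. Cd244a, the 2B4 receptor, was lower at 2 h, at 137 CPM in the naive library, 39.6 at 2 h and 109 at 3 days (log2 ratio -1.47, 95% interval -2.11 to -0.87), and the granule cathepsin Ctsw stood at 369 CPM in the naive library, 192 at 2 h and 398 at 3 days (log2 ratio -1.05, 95% interval -1.33 to -0.78). In contrast, Nkg7 and Tyrobp had log2 ratios of -0.025 (95% interval -0.12 to 0.064) and 0.02 (95% interval -0.062 to 0.10), both with intervals across 0.

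Of 10 tested Ly49, NKG2 and KLRG1 receptor genes, 0 were at least 2-fold higher and 0 lower at 2 h, beside 3.55% and 8.31% of all genes, and 10 genes are too few to show a difference from those shares. Summed, they stood at 4003 CPM in the naive library, 2198 at 2 h and 2565 at 3 days, a log2 ratio of -0.22 (95% interval -0.31 to -0.14). Klra8 (Ly49H, an activating receptor that recognizes a cytomegalovirus protein) stood at 1057 CPM in the naive library, 369 at 2 h and 550.0 at 3 days, and Klra4 (Ly49D, also activating) at 1007 CPM in the naive library, 463 at 2 h and 717 at 3 days. Both were lower at 2 h than at 3 days, with log2 ratios of -0.58 (95% interval -0.78 to -0.37) and -0.63 (95% interval -0.81 to -0.45), and both were highest in the naive library. Klra9 (Ly49I, inhibitory) had the opposite sign, at 0.30 (95% interval 0.085 to 0.51), but its ratio was -0.094 when each cell was thinned to 500 UMIs. Klrc1, which encodes NKG2A, stood at 221 CPM in the naive library, 232 at 2 h and 148 at 3 days (log2 ratio 0.65, 95% interval 0.35 to 0.94). Ly49 genes are near-identical in sequence, so reads can be split between them in a way that depends on the counting, and single values of this family are uncertain. Several of these genes were detected in single cells: at 2000 UMIs per cell, the median number of Ly49 genes detected was 2 in the naive library (478 cells) and 2 at 3 days (290 cells), with no Ly49 gene in 7.95% and 11.4% of cells. A single Ly49 gene was detected in 1.96% and 0.666% of B cells at that depth and 2 or more in none of 459 and 1802, but how far split reads add to joint detection within an NK cell was not tested. Klra8 and Klra4 were detected together in 32.6% of naive cells and 30% of cells at 3 days, against products of their separate shares of 28.2% and 27.0%. The 2 h library was too shallow for this depth.

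The summed level of granule and exocytosis genes differed by little. Of 13 tested granule and exocytosis genes, 1 was at least 2-fold higher at 2 h (Rab27a) and 1 at least 2-fold lower (Ctsw), beside 3.55% and 8.31% of all genes, and the list summed to 6491 CPM in the naive library, 6053 at 2 h and 6596 at 3 days, a log2 ratio of -0.12 (95% interval -0.18 to -0.072). Gzmb, the granzyme B protease, stood at 916 CPM in the naive library, 1259 at 2 h and 909 at 3 days (log2 ratio 0.47, 95% interval 0.35 to 0.59). With the ratio of T cells subtracted, that of Gzmb was -0.86, so Gzmb was higher at 2 h by more in the cells called T cells. That call allowed at most 1 UMI of the rule genes, a limit that is looser in shallow cells. Rule genes summed to 90.6 CPM in T cells at 2 h and 31.1 CPM at 3 days. The part of this selection in the T cell ratios of Gzmb and Ccl5 was not tested. Rab27a, a GTPase that docks granules at the membrane, stood at 73.8 CPM in the naive library, 143 at 2 h and 46.8 at 3 days (log2 ratio 1.62, 95% interval 1.18 to 2.06), and its ratios were 1.24 in T cells and 0.88 in B cells. Serpinb9, an inhibitor that protects the killer cell from granzyme B, stood at 645 CPM in the naive library, 769.8 at 2 h and 934 at 3 days (log2 ratio -0.28, 95% interval -0.42 to -0.13), and Srgn, the proteoglycan of the granule core, at 819 CPM in the naive library, 570.1 at 2 h and 931 at 3 days (log2 ratio -0.71, 95% interval -0.87 to -0.54).

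Among 9 tested cytokine and chemokine genes, 1 was at least 2-fold higher at 2 h (Ccl5) and 0 were lower, beside 3.55% and 8.31% of all genes. In thinned cells 1 of 6 was higher and 1 lower, beside 9.49% and 10.2%, and without the odd clusters 1 of 9 was higher and 1 lower, beside 3.76% and 7.97%. Ccl4, a chemokine, stood at 261 CPM in the naive library, 645 at 2 h and 362 at 3 days (log2 ratio 0.83, 95% interval 0.65 to 1.01). Its ratio was 2.25 in T cells, with the same limit of the T cell call as for Gzmb. Ifng, the gene of interferon-gamma, stood at 41.8 CPM in the naive library, 44.2 at 2 h and 63.8 at 3 days, with a log2 ratio of -0.53 (95% interval -1.17 to 0.068), and was detected in 1.51% and 2.01% of thinned cells, which is too few to show a difference at this depth. Xcl1, which attracts cross-presenting dendritic cells, stood at 121 CPM in the naive library, 59.5 at 2 h and 119 at 3 days (log2 ratio -0.999, 95% interval -1.53 to -0.50). None of 26 tested cytokine receptor and signalling genes was past 2-fold, where 3.55% of all genes were higher and 8.31% lower, and their sum had a log2 ratio of -0.028 (95% interval -0.076 to 0.021). Ifngr1, a chain of the interferon-gamma receptor, stood at 1787 CPM in the naive library, 2473 at 2 h and 1725 at 3 days (log2 ratio 0.52, 95% interval 0.43 to 0.61), against -0.16 in T cells. Il18rap, a chain of the interleukin-18 receptor, stood at 886 CPM in the naive library, 309 at 2 h and 508 at 3 days (log2 ratio -0.72, 95% interval -0.94 to -0.50), and Il2rb, which NK cells need to sense interleukin-15, at 1351 CPM in the naive library, 1128 at 2 h and 1467 at 3 days (log2 ratio -0.38, 95% interval -0.50 to -0.26).

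**Figure D3:**
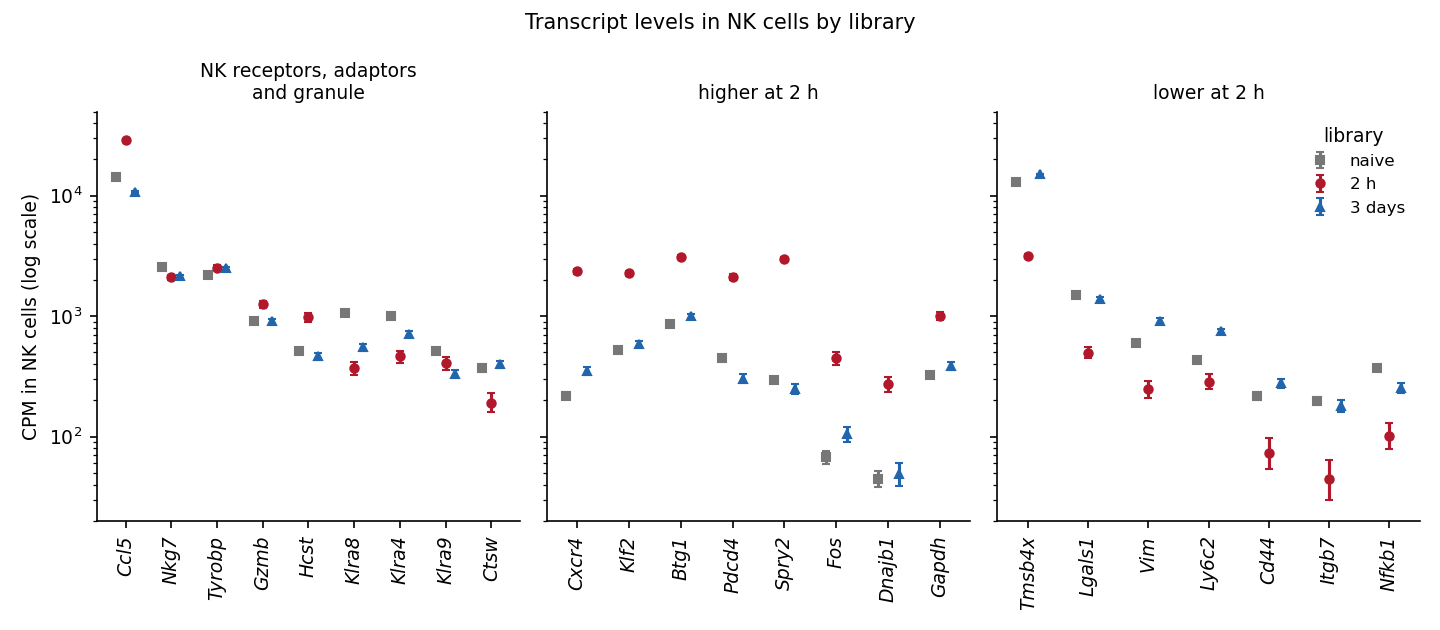
CPM (y axis, log scale) of named genes (x axis) in NK cells of the naive, 2 h and 3 days libraries. Points are single libraries and bars are 95% Poisson intervals of counting error. Cxcr4 stands at 2361 CPM at 2 h against 219 and 350.4 CPM, and Tmsb4x at 3174 CPM against 13100.3 and 15023 CPM.

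Several genes of homing and adhesion were lower at 2 h than at 3 days, while Cxcr4 was higher. Of 24 tested members, 1 was at least 2-fold higher at 2 h (Cxcr4) and 6 at least 2-fold lower, where 3.55% and 8.31% of all genes were, with a median log2 ratio of -0.55 beside -0.20 over all genes. In thinned cells 1 of 18 were higher and 6 lower, where 9.49% and 10.2% of all genes were. Cxcr4, the CXCL12 receptor that holds NK cells in the marrow, stood at 219 CPM in the naive library, 2361 at 2 h and 350.4 at 3 days, a log2 ratio of 2.75 (95% interval 2.62 to 2.89). At 500 UMIs per cell, 55.7% of NK cells at 2 h held a Cxcr4 UMI, against 10.1% in the naive library and 14.4% at 3 days. B cells gave 54.0% at 2 h and 13.8% at 3 days, and the log2 ratios were 2.26 in T cells and 3.16 in B cells, so the difference was shared by the lymphocytes of these libraries. Lower at 2 h were Itgb7 (integrin beta-7), at 199 CPM in the naive library, 44.2 at 2 h and 179.9 at 3 days (log2 ratio -2.02, 95% interval -2.63 to -1.47), Cd44 (the hyaluronan receptor), at 218 CPM in the naive library, 73.2 at 2 h and 278 at 3 days (log2 ratio -1.93, 95% interval -2.39 to -1.50), and Itgax (CD11c), at 90.9 CPM in the naive library, 44.2 at 2 h and 149 at 3 days (log2 ratio -1.75, 95% interval -2.35 to -1.19). Ratios of Itgb7 were -2.09 in T cells and -2.57 in B cells, and those of Cd44 were -2.02 in T cells and -1.45 in B cells. These NK values and member counts include the odd clusters. Cd44 stood at 672 CPM in the cells led by Cd74 at 3 days and at 574 CPM in those led by Cxcl2 at 2 h. In the largest cluster of each library, Cd44 stood at 57.9 CPM at 2 h and 210 at 3 days. Itgb7 stood there at 55.4 and 142 CPM. Selplg, the P-selectin ligand, differed by less than its counting error, with a log2 ratio of -0.012 (95% interval -0.15 to 0.13).

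The summed transcripts of mature NK cells were lower at 2 h than at 3 days, although most members were within 2-fold. Of 14 tested members, 0 were at least 2-fold higher and 4 at least 2-fold lower at 2 h (8.31% of all genes were lower), and the list summed to 7481 CPM in the naive library, 5525 at 2 h and 8506 at 3 days, a log2 ratio of -0.62 (95% interval -0.68 to -0.57) that was -0.55 without the odd clusters. Ly6c2, a Ly6C antigen of late-stage NK cells, stood at 429 CPM in the naive library, 287 at 2 h and 749 at 3 days (log2 ratio -1.39, 95% interval -1.61 to -1.17), while its ratio was 0.31 in T cells. Lgals1 (galectin-1) stood at 1491 CPM in the naive library, 498 at 2 h and 1395 at 3 days (log2 ratio -1.49, 95% interval -1.66 to -1.32) and Vim (vimentin) at 595 CPM in the naive library, 247 at 2 h and 917 at 3 days (log2 ratio -1.89, 95% interval -2.14 to -1.66). Without the odd clusters Vim stood at 226 and 509 CPM at 2 h and 3 days, a log2 ratio of -1.17. Ratios of the summed list were -0.89 in T cells and -1.14 in B cells, both lower than in NK cells. In thinned cells 5 of 12 tested members were at least 2-fold lower, where 10.2% of all genes were. Among 11 tested transcripts of immature NK cells, 0 were higher and 0 lower by 2-fold, beside 3.55% and 8.31% of all genes. In thinned cells 1 of 5 was lower, beside 10.2%, and without the odd clusters 1 of 11 was lower, beside 7.97%. Emb stood at 313 CPM in the naive library, 329 at 2 h and 477 at 3 days (log2 ratio -0.53, 95% interval -0.76 to -0.32), Cd27 at 91.5 CPM in the naive library, 104 at 2 h and 122 at 3 days (log2 ratio -0.24, 95% interval -0.65 to 0.16) and Ctla2a at 362 CPM in the naive library, 427 at 2 h and 402 at 3 days (log2 ratio 0.088, 95% interval -0.12 to 0.29). At 2000 UMIs per cell, Itgam without Cd27 was detected in 37.4% of naive NK cells and 36.9% of those at 3 days, and Cd27 without Itgam in 7.95% and 10.3%.

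Summed targets and feedback regulators of NF-kB were lower at 2 h, with 0 of 19 tested members at least 2-fold higher, 7 at least 2-fold lower (8.31% of all genes were) and the rest within 2-fold. They summed to 1769 CPM in the naive library, 1393 at 2 h and 2252 at 3 days, a log2 ratio of -0.69 (95% interval -0.80 to -0.59), beside -0.49 in T cells and -0.11 in B cells. Nfkb1, the p105/p50 subunit, stood at 374 CPM in the naive library, 102 at 2 h and 252 at 3 days (log2 ratio -1.31, 95% interval -1.70 to -0.93), Traf1 at 65.2 CPM in the naive library, 48.8 at 2 h and 155 at 3 days (log2 ratio -1.66, 95% interval -2.24 to -1.13), and Birc3, an inhibitor of apoptosis, at 164 CPM in the naive library, 38.1 at 2 h and 89.1 at 3 days (log2 ratio -1.23, 95% interval -1.90 to -0.61). Tnfaip3 (A20), the main brake of the pathway, stood at 355 CPM in the naive library, 326 at 2 h and 468 at 3 days (log2 ratio -0.52, 95% interval -0.74 to -0.30). Without the odd clusters, 5 of 19 members were at least 2-fold lower, where 7.97% of all genes were, and in thinned cells 3 of 9, where 10.2% were. Of 16 tested heat shock genes, 3 were higher and 2 lower by 2-fold, beside 3.55% and 8.31% of all genes, and in thinned cells 1 of 10 was higher and 1 lower, beside 9.49% and 10.2%. Dnajb1, an HSP40 co-chaperone, stood at 44.4 CPM in the naive library, 273 at 2 h and 49.0 at 3 days (log2 ratio 2.48, 95% interval 2.10 to 2.86), and Dnaja1 at 305 CPM in the naive library, 742 at 2 h and 366 at 3 days (log2 ratio 1.02, 95% interval 0.85 to 1.19). On the other side, Hsp90aa1 stood at 279.6 CPM in the naive library, 203 at 2 h and 426 at 3 days (log2 ratio -1.07, 95% interval -1.35 to -0.80), and Hsp90ab1, its constitutive paralog, had a ratio of -0.072 (95% interval -0.21 to 0.063). Dnajb1 had ratios of 2.25 in T cells and 2.73 in B cells.

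Summed interferon-induced genes were lower at 2 h than at 3 days in NK cells, although most members were within 2-fold, and part of this lay in the cells that went against the label. Of 39 tested members, 0 were at least 2-fold higher and 8 at least 2-fold lower (8.31% of all genes were lower), and the list summed to 2178 CPM in the naive library, 2352 at 2 h and 3678 at 3 days, a log2 ratio of -0.64 (95% interval -0.73 to -0.56). Without the odd clusters, 6 of 35 tested members were at least 2-fold lower, where 7.97% of all genes were, and the log2 ratio of the sum was -0.36. In thinned cells 1 of 16 tested members was higher and 4 lower, where 9.49% and 10.2% of all genes were. Bst2 (tetherin) stood at 40.8 CPM in the naive library, 24.4 at 2 h and 225 at 3 days, and without those cells at 17.1 and 31.2 CPM at 2 h and 3 days. Ifitm3, a membrane protein that blocks viral entry, stood at 6.24 CPM in the naive library, 35.1 at 2 h and 232 at 3 days, and without them at 8.56 and 54.7 CPM, while Ifitm2 stood at 5.20 CPM in the naive library, 61.0 at 2 h and 262 at 3 days and at 18.8 and 78.2 CPM without them. Ly6e had a ratio of -0.36 (95% interval -0.59 to -0.13) that turned to 0.034 without them, and Psmb8, an immunoproteasome subunit, had a ratio of -0.17 (95% interval -0.42 to 0.076). In T cells the summed list had the opposite sign, with a log2 ratio of 0.36 (95% interval 0.31 to 0.40), against -0.23 in B cells.

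Of 22 tested transcription factors of NK and innate lymphoid cells, 0 were at least 2-fold higher and 1 at least 2-fold lower (Foxo1) at 2 h, beside 3.55% and 8.31% of all genes. Foxo1, which restrains NK maturation, stood at 276 CPM in the naive library, 51.8 at 2 h and 129 at 3 days (log2 ratio -1.32, 95% interval -1.88 to -0.80), and Zeb2, which drives terminal maturation, at 725 CPM in the naive library, 166 at 2 h and 326 at 3 days (log2 ratio -0.97, 95% interval -1.28 to -0.67). With the ratio of T cells subtracted, that of Zeb2 was 1.94, so Zeb2 was lower at 2 h by more in T cells. Gata3 was higher at 2 h, at 70.2 CPM in the naive library, 122 at 2 h and 56.1 at 3 days (log2 ratio 1.12, 95% interval 0.68 to 1.56), as was Ets1, at 942 CPM in the naive library, 1285 at 2 h and 909 at 3 days (log2 ratio 0.50, 95% interval 0.38 to 0.62). Genes of glycolysis and hypoxia held 2 of 21 tested members at least 2-fold higher at 2 h and 1 lower, beside the same shares. Gapdh stood at 325 CPM in the naive library, 1005 at 2 h and 388 at 3 days (log2 ratio 1.37, 95% interval 1.22 to 1.53) and Eno1 (enolase) at 137 CPM in the naive library, 218 at 2 h and 85.8 at 3 days (log2 ratio 1.35, 95% interval 1.01 to 1.68), and their ratios in T cells were 1.08 and 0.59. Of 18 tested proliferation genes, 1 was at least 2-fold higher (Tubb5, at 113 CPM in the naive library, 379.6 at 2 h and 106 at 3 days), beside 3.55% of all genes, and 0 lower, although the summed list had a log2 ratio of 0.49 (95% interval 0.43 to 0.55), to which the histone variant H2afz contributed most, at 1119 CPM in the naive library, 2462 at 2 h and 1382 at 3 days. Mki67, the defining marker of cycling cells, gave 45, 3 and 6 UMIs over all NK cells, at 4.57 CPM (95% interval 0.943 to 13.4) at 2 h and 3.30 CPM (95% interval 1.21 to 7.18) at 3 days, so no difference was detectable at this depth.

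Among the genes farthest apart between the 2 transplant libraries were several that T and B cells shared. Hist1h4h, a replication-type histone, stood at 12.2 CPM in the naive library, 308 at 2 h and 8.25 at 3 days (log2 ratio 5.22, 95% interval 4.47 to 6.09), and Bc1, a small non-coding RNA, at 17.9 CPM in the naive library, 293 at 2 h and 7.70 at 3 days (log2 ratio 5.25, 95% interval 4.47 to 6.15). Spry2, a brake of receptor tyrosine kinase signalling, stood at 296 CPM in the naive library, 2986 at 2 h and 250.3 at 3 days, with a log2 ratio of 3.58 (95% interval 3.43 to 3.73). In other lymphocytes these 3 genes also stood far higher at 2 h, with Hist1h4h at 4.25 in T cells and 4.44 in B cells, Bc1 at 4.66 in T cells and 5.10 in B cells and Spry2 at 4.28 in T cells and 4.07 in B cells. Nfia stood at 67.6 CPM in the naive library, 102 at 2 h and 6.05 at 3 days (log2 ratio 4.08, 95% interval 3.15 to 5.15), the lowest of the 3 libraries being that at 3 days. In the other direction, Tmsb4x (thymosin beta-4, which sequesters actin) stood at 13100.3 CPM in the naive library, 3174 at 2 h and 15023 at 3 days, a log2 ratio of -2.24 (95% interval -2.31 to -2.18), beside -2.13 in T cells and -1.83 in B cells. S100a4 stood at 77.7 CPM in the naive library, 15.2 at 2 h and 426 at 3 days (log2 ratio -4.81, 95% interval -5.87 to -3.92), and at 13.7 and 125 CPM at 2 h and 3 days without the odd clusters (log2 ratio -3.19). After the log2 ratio of T cells was subtracted from that of NK cells, 90 genes in place of 265 were at least 2-fold higher at 2 h and 249 in place of 620 lower.

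Markers of other cells differed between libraries within the NK cells, and their part in the results above was not tested beyond the values without the odd clusters. Dendritic cell markers could reach the 30-UMI minimum through the 3 days library alone, so their members past 2-fold are not counted. The 12 markers summed to 148 CPM in the naive library, 971 at 2 h and 4296 at 3 days. Without the odd clusters the sum was 78.7 CPM at 2 h and 319 CPM at 3 days, and Siglech stood at 0 and 1.27 CPM. Cd74, the MHC class II invariant chain and the most abundant of these genes, stood at 31.4 CPM in the naive library, 517 at 2 h and 1510.4 at 3 days, and at 29.1 and 78.2 CPM without them. Monocyte and macrophage markers summed to 365 CPM in the naive library, 285 at 2 h and 1149 at 3 days and to 249.9 and 947 CPM at 2 h and 3 days without those cells. At 2 h, 8 of these 18 markers, Csf1r, Fn1 and Saa3 among them, were at 0, so a marker could reach the 30-UMI minimum through the 3 days library alone, and no count of members is given. Neutrophil markers, whose members are not counted for the same reason, summed to 137 CPM in the naive library, 755 at 2 h and 1335 at 3 days. Without the odd clusters they summed to 339 and 1139 CPM at 2 h and 3 days. Il1b stood at 9.61 CPM in the naive library, 151 at 2 h and 398 at 3 days, and at 25.7 and 142 CPM at 2 h and 3 days without those clusters. T cells of the same libraries held 116, 514 and 628 CPM of the neutrophil list. Scgb1a1, a secretory product of airway club cells, stood at 9.35 CPM in the naive library, 21.3 at 2 h and 263 at 3 days. B cell markers summed to 91.7 CPM in the naive library, 178 at 2 h and 231 at 3 days, and T cell markers to 1000.04 CPM in the naive library, 901 at 2 h and 824 at 3 days, of which Cd3d and Cd3e were at 0 by the rule.

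Comparisons with the naive library carried a second difference, since its file came from another version of Cell Ranger. Genes with over 100 kb of intron had a median log2 ratio of naive to 3 days of 1.22 in NK cells, 1.16 in T cells and 1.29 in B cells, while intronless genes had -0.41 in NK cells. From 2 h to 3 days, the same long genes had a median of -0.39. Of 8970 tested genes, 3.78% were at least 2-fold higher at 2 h than in the naive library and 18.7% lower, and of 9514 tested from 3 days to naive, 2.9% were higher and 11% lower. The immediate-early and quiescence list was again high at 2 h, with 16 of 37 tested members higher than in the naive library and 2 lower, while from 3 days to naive 4 of 37 were higher. Among transcription factors, 11 of 24 tested members were at least 2-fold lower at 3 days than in the naive library. Runx1 stood at 2489 CPM in the naive library, 245 at 2 h and 299 at 3 days and Bach2 at 1484 CPM in the naive library, 39.6 at 2 h and 57.8 at 3 days. Both genes span long introns, so the software and the condition cannot be told apart here. Il12rb2, a chain of the interleukin-12 receptor, stood at 959.8 CPM in the naive library, 204 at 2 h and 176 at 3 days, with the same limit. Interferon-induced genes held 9 of 46 tested members at least 2-fold higher at 3 days than in the naive library, and 4 of 44 without the odd clusters, where 1.38% of all genes were.

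NK cells were then clustered within each library without the rule genes, and the clusters are described by their leading genes, with no test, as the same cells defined them. Each library held a cluster with high Emb, a transcript of less mature cells. In the naive library, 169 cells were led by Kcnip4, Emb and Plxnc1, with Emb at 554 CPM against 74.5 CPM in the 175 cells led by Zeb2, Cx3cr1 and Itga4. At 2 h, 110 cells led by Myb, Trf and Emb had Cd27 at 280.4 CPM against 70.5 CPM in the main cluster of 526 cells, and at 3 days 37 cells led by Emb, Acod1 and Cxcl2 had Cd27 at 398 CPM against 123 CPM in the largest cluster, 121 cells led by Crem, and 56.8 CPM in the 110 cells led by Hspa1b, Ifng and Cma1. Emb in these 3 clusters stood at 1611, 468 and 170.3 CPM. The opposite end was marked by Zeb2 and Klrg1 in the naive library, where Klrg1 stood at 269 CPM in the Zeb2 cluster and 87.7 CPM in the Emb cluster. Gzmb, in the same 2 clusters, stood at 1298 and 673 CPM, at 2 h in the main and the Emb cluster at 1609 and 678 CPM, and at 3 days in the Crem, the Hspa1b and the Emb cluster at 1014, 1336 and 318 CPM. In each library the Emb cluster was the lowest of these for Gzmb. The Emb cluster at 3 days also held more neutrophil transcripts, with S100a8, S100a9, Csf3r, Retnlg and Cxcr2 summing to 880.5 CPM against 520.5 CPM in the Crem cluster.

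Further clusters were led by other genes. At 2 h, 78 cells were led by Hspa1b, Ccl4 and Fos. In them Ccl4 stood at 3491 CPM against 335 CPM in the main cluster, Ifng at 248 against 25.2 CPM and Fos at 2471 against 184 CPM. These cells were 10.2% of the NK cells at 2 h. They also held more T cell markers, at 157 CPM against 20.1 CPM in the main cluster, and more proliferation markers, at 105 against 10.1 CPM. Whether T cells without a Cd3d or Cd3e UMI were among them was not tested. The naive library held a like cluster of 52 cells led by Fosb, Fos and Nfkbia, with Fos at 352 CPM and Ccl4 at 752 CPM. A second naive cluster, of 87 cells, was led by Pmepa1, Tiparp and Tgfb1, and it held Smad7 and Ski, which with Pmepa1 are feedback regulators of TGF-beta signalling. Smad7 stood at 551 CPM in it and at 72.1 CPM in the Zeb2 cluster. At 3 days, 121 cells were led by Crem, Nr4a2 and Tinf2, and 15 cells by Bcl2a1b, Icam1 and Xcl1. The latter had Nfkb1 at 1029 CPM against 166 CPM in the Crem cluster, Tnfrsf9 (4-1BB) at 549.7 against 96.5 CPM and Xcl1 at 678 against 83.9 CPM. Cluster sizes were not compared between libraries.

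**Figure D4:**
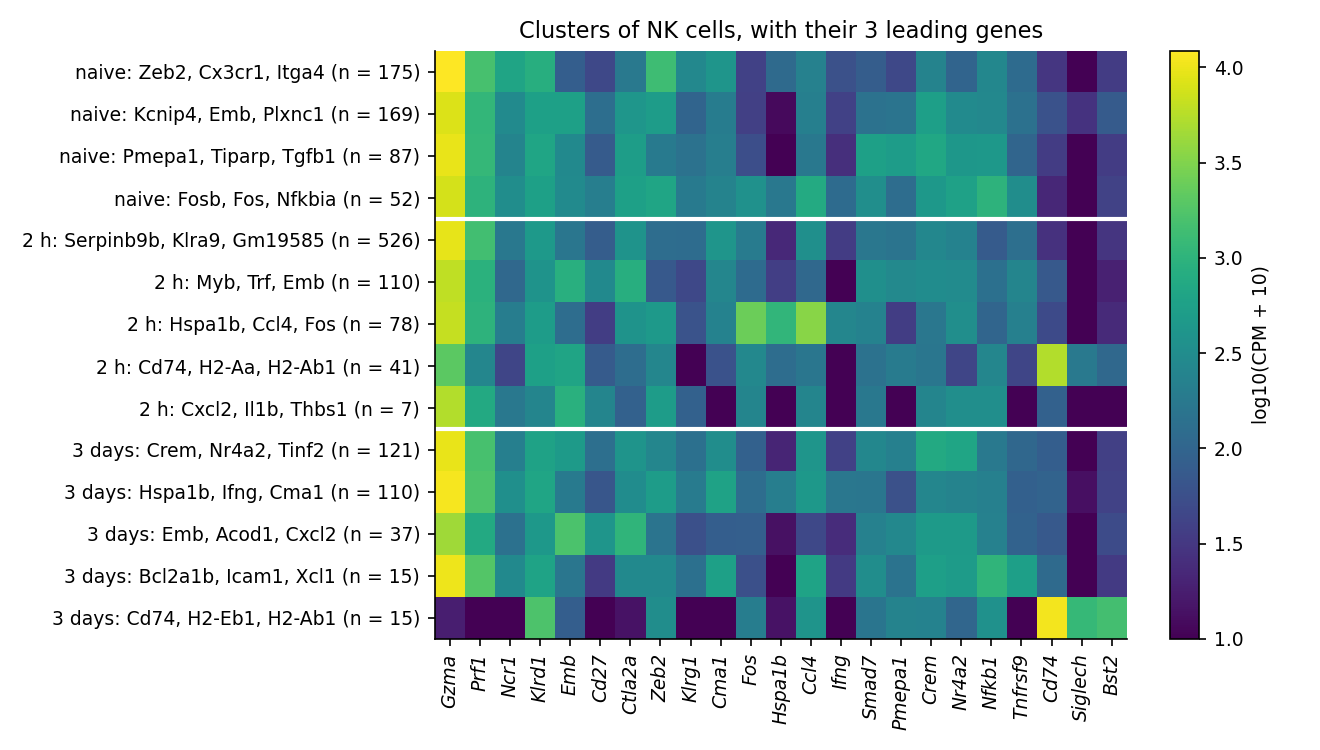
Level of named genes (columns, log10 of CPM + 10) in the clusters of NK cells of each library (rows, with their 3 leading genes and number of cells). White lines part the libraries. The bottom row, 15 cells at 3 days, holds Cd74 at 10688 CPM and Gzma at 8.15 CPM.

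The 2 transplant libraries also held antibody counts, a readout of surface protein that the rule did not use. Of 277 antibody features, named for human targets, ITGB7, CD44, ITGA6, CD45R and LGALS3 took 97.1% of the antibody UMIs of NK cells at 2 h (14197 UMIs) and 98.8% at 3 days (11821 UMIs). The 35 antibodies against NK receptors and related targets gave 5 and 2 UMIs, so NK surface receptors could not be read, and 9 isotype controls took 2.36% and 1.02%. ITGB7 gave 8.67 (95% interval 8.46 to 8.88) UMIs per NK cell at 2 h and 18.9 (95% interval 18.4 to 19.4) at 3 days, while Itgb7 RNA was lower at 2 h by a log2 ratio of -2.02. Scaling set the comparison between times: as shares of antibody UMIs, ITGB7 took 46.5% and 47.7%, a log2 ratio of -0.037, while by centred log ratio per cell the difference was -0.77. CD44 took 26.9% and 19.1%, a log2 ratio of 0.49 that turned to a difference of -0.52 by centred log ratio, and it gave 5.01 and 7.59 UMIs per cell. LGALS3 took 0.866% and 6.09%. CD45R (B220) was higher on NK cells than on T cells in both libraries, at 0.861 (95% interval 0.796 to 0.929) against 0.274 (95% interval 0.239 to 0.312) UMIs per cell at 2 h and 0.909 (95% interval 0.804 to 1.02) against 0.166 (95% interval 0.122 to 0.22) at 3 days, and far below that on B cells, at 19.3 and 17.9. Without the odd clusters NK cells carried 0.59 (95% interval 0.535 to 0.649) CD45R UMIs per cell at 2 h and 0.834 (95% interval 0.731 to 0.947) at 3 days, still above T cells. ITGA6 (integrin alpha-6) was lower on NK cells than on T cells, at 3.38 (95% interval 3.25 to 3.52) against 7.85 (95% interval 7.66 to 8.05) at 2 h and 9.34 (95% interval 8.99 to 9.69) against 18.5 (95% interval 18.02 to 19.0) at 3 days. T cells carried more antibody UMIs in all, and as shares of antibody UMIs ITGA6 took 18.2% on NK cells and 22.6% on T cells at 2 h, and 23.5% and 24.7% at 3 days, so most of the gap per cell was not seen by share.

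Antibody counts also separated the clusters of NK cells, in the same direction at both times. The cluster with high Emb and Cd27 carried less ITGB7 than the largest cluster of its library, at 5.99 (95% interval 5.54 to 6.47) against 8.12 (95% interval 7.88 to 8.37) UMIs per cell at 2 h and 5.62 (95% interval 4.88 to 6.44) against 19.9 (95% interval 19.2 to 20.8) at 3 days. It carried more ITGA6, at 4.29 (95% interval 3.91 to 4.70) against 2.74 (95% interval 2.60 to 2.89) at 2 h and 16.8 (95% interval 15.5 to 18.2) against 7.75 (95% interval 7.26 to 8.26) at 3 days. CD44 followed ITGA6, at 5.35 against 3.48 and 10.5 against 5.21, as did CD45R, at 1.12 against 0.473 and 1.62 against 0.744. Itgb7 RNA did not follow the antibody at 3 days, at 219 CPM in the Emb cluster and 142 CPM in the Crem cluster. Rat IgG1 lambda, an isotype control, also gave more on the Emb cluster, at 0.518 against 0.276 and 0.432 against 0.231, and its part in the higher ITGA6, CD44 and CD45R counts was not tested. ITGB7 ran against that direction. The 15 cells led by Cd74 at 3 days carried 30.3 CD44 UMIs per cell, and the 41 such cells at 2 h carried 5.59 CD45R UMIs per cell.

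**Figure D5:**
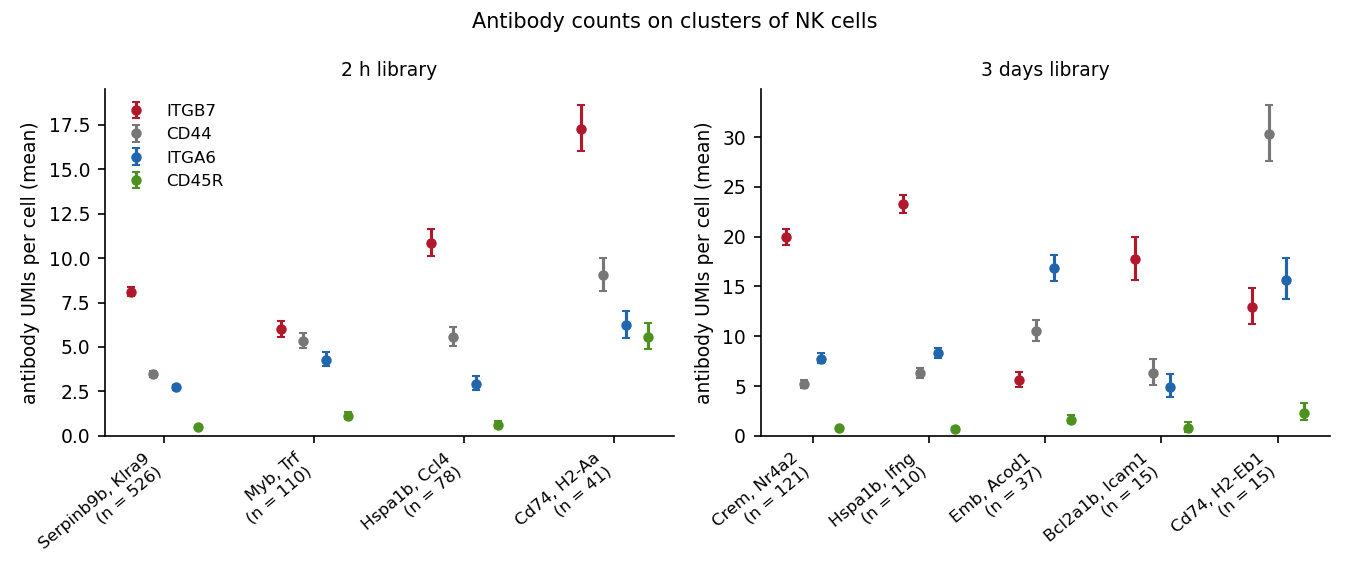
Mean antibody UMIs per cell (y axis) of 4 antibodies on the clusters of NK cells (x axis, 2 leading genes each) at 2 h and 3 days, with 95% Poisson intervals of counting error. The 2 h cluster of 7 cells is left out. ITGB7 is lowest on the Myb and Trf cluster at 2 h (5.99) and on the Emb and Acod1 cluster at 3 days (5.62), and ITGA6 is highest on the latter (16.8).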

How the data were processed

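The authors deposited, for each library, UMI counts per feature and cell barcode from Cell Ranger, on mm10; per the file headers the version was 6.0.0 for both transplant libraries and 7.1.0 for the naive library. The submitters' processing notes name Cell Ranger 6 and Seurat 4. The sources name both 5′ and 3′ chemistry, which was not settled, and do not state whether introns were counted. The limits on cells were above 200 and below 6000 genes, below 25000 UMIs, and a mitochondrial share below 10%. Doublets were called with Scrublet through scanpy 1.11.5 and kept. UMIs of members were summed per library and given as CPM with exact Poisson intervals, and log2 ratios with exact intervals conditional on the total count, at 95% confidence (Python 3.11.15, scipy 1.17.1). The script was tested on simulated data. T cells had at least 2 UMIs of Cd3d and Cd3e, B cells at least 2 of Cd79a, Cd79b and Ms4a1, and both at most 1 UMI of the rule genes.

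To compare shares of cells with a UMI, each cell was thinned at random to 500, 1000 or 2000 UMIs, leaving out shallower cells. NK cells of each library were clustered by the Leiden method (leidenalg 0.10.2, resolution 0.5) on 20 principal components of 2000 variable genes without the rule genes. With 1 library per condition and no replicate, no test was run and no p-value is given. The members and the gene lists were chosen with earlier results of these data known. Genes were named by rule: of each list, up to 4 members with the highest CPM and up to 4 with the widest ratio of CPM + 10, the genes with the widest ratios between libraries, and the leading genes of clusters. Runx3, Tbx21, Mki67, Smad7 and Tnfrsf9, where outside this rule, were chosen after their values were seen. The removal of the clusters led by Cd74 and Cxcl2, and of Btg1, Klf2 and Pdcd4 from their list, was also chosen after the data were seen. Alternatives were other cell filters, rule limits, scalings, pseudocounts and cluster resolutions.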

Additional observations from a re-analysis of the deposited data

Results flagged for a closer look

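In 3 gene lists the summed log2 ratio from 2 h to 3 days had opposite signs in NK and T cells with each 95% counting interval on its own side of 0, leaving aside the rule genes and the T and B cell markers, which the selection itself sets. This is a comparison of 1 library with 1 library in each cell type, so the difference between cell types was not tested over samples. Interferon-induced genes had -0.645 in NK cells and 0.357 in T cells, transcription factors -0.230 in NK cells and 0.148 in T cells, and apoptosis genes -0.298 in NK cells and 0.188 in T cells. Without the clusters led by Cd74 and Cxcl2, the values in NK cells were -0.36, -0.32 and -0.35 in the same order.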

How the results depend on the processing

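No paired analysis was possible because each condition had 1 library, and for the same reason no library could be left out. The order of the NK share, naive above 2 h above 3 days, held under every alternative run. With no filter on cells the naive share was 16.9%. With the NK gene limits alone the shares were 23.0%, 9.10% and 5.07%, with at least 3 UMIs and 0.2% the share at 2 h was 6.84%, and with the rule after thinning to 1000 UMIs they were 21.8%, 4.31% and 4.17%.

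Counts of genes past 2-fold differed with the depth and scaling used. From 2 h to 3 days, genes lower at 2 h numbered 271 in thinned cells and 244 in members called after thinning, 1188 with a pseudocount of 1, and 249 with the ratio of T cells subtracted, which left 90 higher. From 2 h to naive, 803, 812, 2630 and 343 were lower in that order, with 569 higher at a pseudocount of 1 and 184 with T cells subtracted. From 3 days to naive, 496, 491, 1668 and 163 were lower. Genes higher at 3 days than naive numbered 86 and 74 under the thinnings, 510 with a pseudocount of 1, 183 as a mean over cells, 175 with at least 3 UMIs and 0.2%, 103 without cells holding other markers and 129 without the Cd74 and Cxcl2 clusters.

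Without those clusters the summed log2 ratio was -0.19 for granule genes and 0.90 for immediate-early and quiescence genes, and the share of CD45R had a log2 ratio of 0.73. In all NK cells the immediate-early and quiescence ratio was 0.53 without Btg1, Klf2 and Pdcd4. Of the 70 genes checked over 671 values from 2 h to 3 days, 491 stayed within counting error, 161 moved and 19 turned sign, while of 76 values of 25 list sums 54 stayed, 22 moved and 0 turned sign. After the ratio of T cells was subtracted the log2 ratio was -0.86 for Gzmb, -1.41 for Ccl4, -0.12 for Ets1, -0.10 for Btg1, -0.34 for Pdcd4, -0.33 for Fos, -0.70 for Spry2, 0.057 for Srgn, 0.28 for Il2rb, 1.94 for Zeb2, 0.064 for Itgb7, 0.090 for Cd44, 0.41 for Tnfaip3 and 0.0063 for Nfkb1. Ly6e turned to 0.089 without cells holding other markers, 0.034 without the clusters, and 0.44 and 0.25 under the thinnings, and Klra9 to -0.094 in thinned cells. By centred log ratio the antibody differences from 2 h to 3 days were -0.77 for ITGB7, -0.52 for CD44, -1.19 for ITGA6, -0.15 for CD45R and -1.33 for LGALS3. By share of antibody UMIs they were -0.037, 0.49, -0.37, 1.01 and -2.81 in the same order, so those of CD44 and CD45R turned sign. At resolution 0.8 the naive and 2 h cells gave 8 and 9 clusters, and at 0.3 the 2 h cells gave 3. The causes of these changes were not tested. The 2 h library had 655986 NK UMIs, so genes under the 30-UMI minimum could not be compared.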

Other observations

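Checkpoint and costimulatory receptors were mostly within 2-fold between 2 h and 3 days, with 0 of 10 tested members at least 2-fold higher at 2 h and 1 lower, beside 3.55% and 8.31% of all genes, and they summed to 1202 CPM in the naive library, 840.0 at 2 h and 1016 at 3 days. Markers of type 1 innate lymphoid cells, close relatives of NK cells, summed to 304 CPM in the naive library, 242 at 2 h and 357 at 3 days, with 2 of 7 tested members at least 2-fold lower at 2 h, beside 8.31%. Without the clusters led by Cd74 and Cxcl2 their sum was 179.7 CPM at 2 h and 207 CPM at 3 days. Of 4 tested members 0 were then past 2-fold, where 3.76% of all genes were higher and 7.97% lower, and 4 genes are too few to show a difference from those shares. Markers of type 2 innate lymphoid cells summed to 77.4 CPM in the naive library, 146 at 2 h and 103 at 3 days, of which Gata3 made up 70.2, 122 and 56.1 CPM. Transcripts of T cell receptor genes were present at like levels in all 3 libraries, at 647 CPM in the naive library, 570.1 at 2 h and 602 at 3 days. Basophil and mast cell markers summed to 0.779 CPM in the naive library, 0 at 2 h and 3.85 at 3 days, and endothelial, red cell and platelet markers to 78.2 CPM in the naive library, 41.2 at 2 h and 57.2 at 3 days. Ribosomal protein genes took 139135 CPM in the naive library, 167298 at 2 h and 167313 at 3 days.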
